A study of Rattus norvegicus with 35 samples.

Results

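Gene expression was compared between CM-enriched cultures and cultures of fibroblasts, both from neonatal rat ventricles and both kept on collagen I-coated Flexcell plates without stretch. Of the 35 Affymetrix rat arrays of the series, 6 carried such cells, 3 of CM-enriched cultures (CM, cardiac myocytes) and 3 of fibroblasts, and they were chosen by their titles. These cultures served as the unstretched controls of a cyclic stretch experiment. All animals were neonatal rats, no strain was given in the sources used here, and none of the cells carried a transgene or an added agent. The study separated the cells by pre-plating, by which cells that attach early are taken off as fibroblasts. The CM-enriched cultures were not purified further, and by the study's own flow cytometry they held a large share of non-myocytes, while the fibroblast cultures held a small share of myocytes. The CM-enriched cells were grown for a few days in horse serum, whereas the fibroblasts were subcultured and grown for longer in foetal bovine serum. Cell population, serum, passage and time in culture therefore cannot be told apart in this comparison. The study describes independent experiments for each stressor, and the labels do not say from which isolation each array came, so the p values measure the spread between these samples.

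Cardiac myocytes are the contracting cells of the heart. They fill their cytoplasm with sarcomeres and mitochondria, cycle calcium through the sarcoplasmic reticulum at each beat, and burn fatty acids. Cardiac fibroblasts lie between them and lay down the collagens, elastin and proteoglycans of the matrix, which they also remodel through proteases. In culture on a stiff surface they proliferate and take on features of myofibroblasts.

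Values below are normalised intensities on a linear scale, after each array was brought to a common level, and differences are log2 values of CM-enriched minus fibroblast cultures with their standard error (SE). Intensities under 6.8 were raised to that floor, which quantile normalisation turned into 6.78. The floor took in 15.2% to 19.8% of the probe-sets of the CM-enriched arrays and 22% to 24% of those of the fibroblast arrays. A difference passed at an adjusted p under 0.05 (limma, Benjamini-Hochberg over 8740 probe-sets). The 3' to 5' ratio of the GAPDH control probe-sets was 1 to 1.08 on all 6 arrays. That of the actin control probe-sets was 2.05 on the array of fibroblast replicate 2 and 1.24 to 1.49 on the other 5.

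In CM-enriched cultures, 734 probe-sets were higher (8.4% of 8740) and 996 were lower (11.4%) than in cultures of fibroblasts. At the level of the study, an adjusted p under 0.005, these numbers were 81 (0.927%) and 113 (1.29%), 2.22% in all. Every one of the 1730 called probe-sets (19.8%) kept all CM-enriched arrays on one side of all fibroblast arrays. With so few arrays, groups that overlap can hardly pass the test, so this adds no support to the calls. Some probe-sets also separate by chance alone. Replicates without overlap were more common than calls, with 1640 probe-sets (18.8%) above and 1861 (21.3%) below on every array, so that 1771 held in every replicate without passing the test. The difference was at least 2-fold for 448 of the higher and 541 of the lower probe-sets. When each array was left out in turn, 246 of the higher and 340 of the lower probe-sets passed in all 6 fits. By the gene rule of the study (at least 50% of the probe-sets of a gene pass in 1 direction), 443 of 4736 genes were higher (9.35%) and 648 were lower (13.7%), 23% in all, and the median difference over all genes was 0.00. The share of calls that were higher was 42.4%. It was 58.8% when arrays were only scaled to their 75th percentile (1032 higher and 724 lower) and 32.0% when they were only scaled to their median (584 higher and 1240 lower), so the balance of the 2 directions depends on the scaling.

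**Figure D1:**
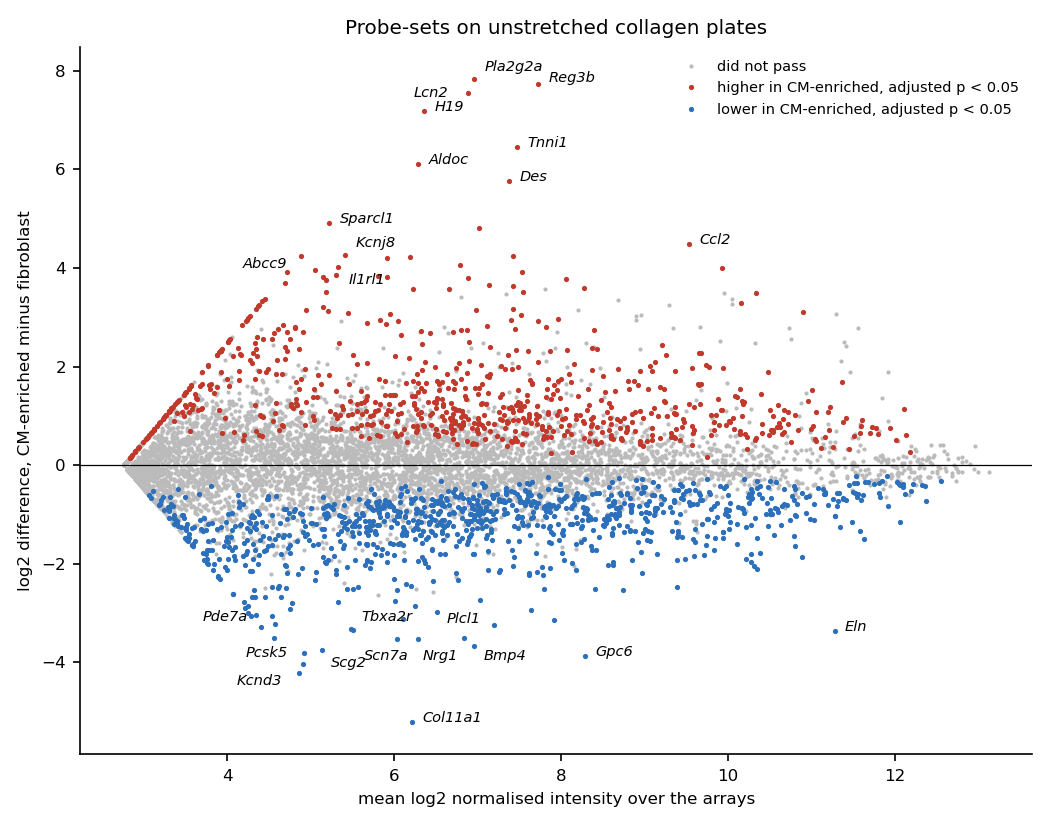
Log2 difference between CM-enriched and fibroblast cultures (vertical axis) against the mean log2 normalised intensity over the 6 arrays (horizontal axis), with 1 point for each of 8740 probe-sets. The 734 probe-sets higher in CM-enriched cultures are red, the 996 lower are blue, and the straight left edge is formed by probe-sets that are at the floor in 1 population. The 12 largest rises and 12 largest falls of distinct genes are named, among probe-sets with 1 symbol, an adjusted p under 0.05, no overlap and a group mean above 4 times the floor, from Pla2g2a at 7.83 to Col11a1 at -5.21.

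The markers that define the populations were examined first. Myh6, the myosin heavy chain of the adult rat ventricle, had intensities of 4100, 3623 and 2645 in CM-enriched cultures, against 286, 1458 and 85.1 in fibroblasts. Myl2, the ventricular regulatory light chain, had 6721, 6184 and 6331 in CM-enriched cultures, against 1162, 3934 and 316 in fibroblasts. All CM-enriched arrays were above all fibroblast arrays for both genes, but the fibroblast arrays spread widely, and neither difference passed the test (Myh6 3.37, SE 1.10, adjusted p = 0.101, and Myl2 2.50, SE 0.96, adjusted p = 0.145). Without fibroblast replicate 2, both passed (adjusted p = 0.0289 for Myh6 and 0.0474 for Myl2). Col1a1, a chain of type I collagen, had 6620, 5931 and 5704 in CM-enriched cultures, against 8092, 7010 and 7912 in fibroblasts. This is a difference of -0.33 (SE 0.10, adjusted p = 0.0865) for its brightest probe-set, and 2 other probe-sets passed (-0.39, adjusted p = 0.0407, and -0.40, adjusted p = 0.0334), so that the gene counted as lower. The labels thus held in direction for all 3 markers, while the level of Col1a1 in the CM-enriched cultures was close to that in fibroblasts. In whole cultures, fewer cells of a type and less RNA per cell cannot be told apart.

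**Figure D2:**
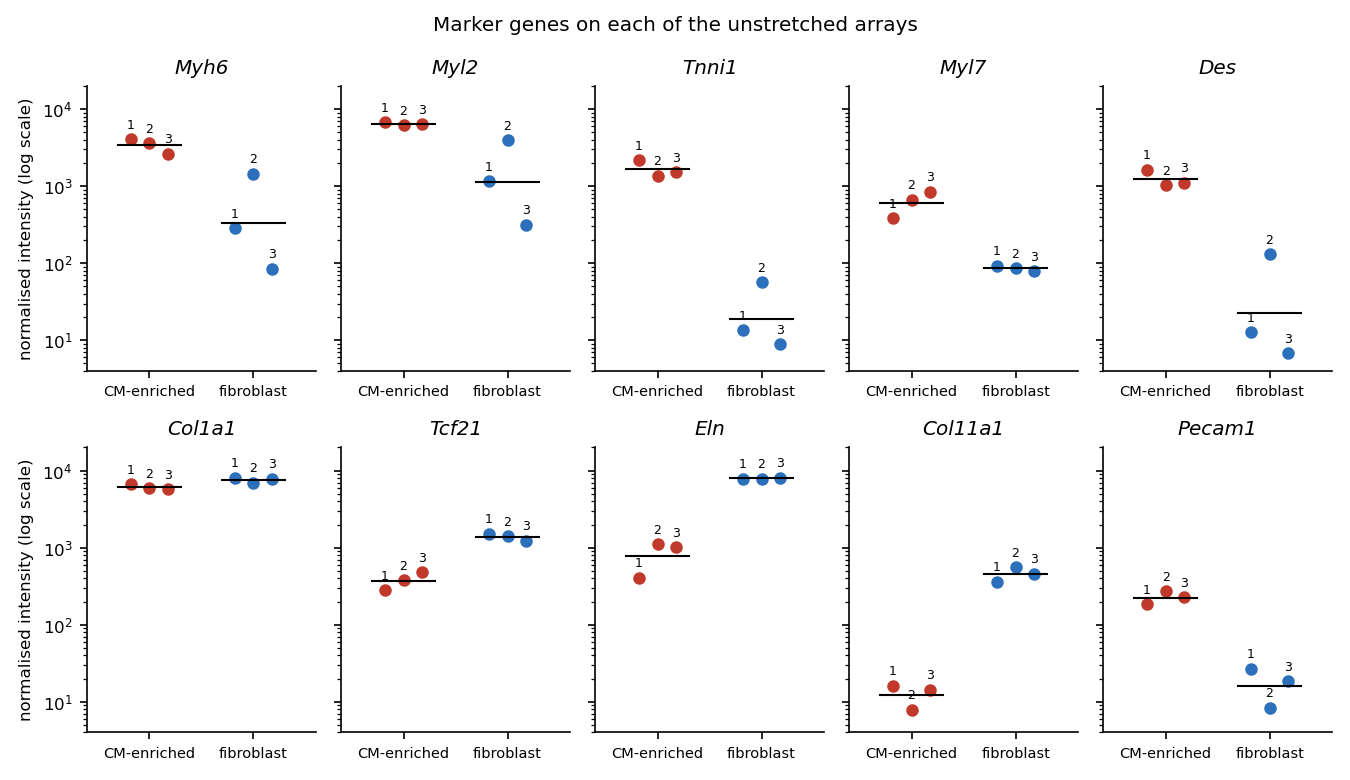
Normalised intensity (log scale) of 10 genes on each of the 6 arrays, CM-enriched cultures in red and fibroblasts in blue, with the replicate number above each point and the geometric mean of the group as a line. Fibroblast replicate 2 has the highest fibroblast value for Myh6, Myl2, Tnni1 and Des, and Col1a1 is bright in both populations.

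Of 26 genes of the sarcomere and Z-disc, 6 were higher in CM-enriched cultures, none was lower, and 17 were above on every array (20% of all genes were). The median difference of the list was 2.32. Tnni1, the slow skeletal troponin I that the heart uses before birth, had 2162, 1366 and 1529 in CM-enriched cultures, against 13.5, 57 and 8.83 in fibroblasts (6.45, SE 0.76, adjusted p = 0.00937). Fibroblast replicate 2 had the highest of the fibroblast values, and Tnni1 passed whichever array was left out. The atrial light chains also separated the populations. Myl4, the atrial essential light chain, had 285, 299 and 615 in CM-enriched cultures, against 37.1, 52.8 and 38.7 in fibroblasts (3.15, SE 0.36, adjusted p = 0.00865). Myl7, the atrial regulatory light chain, had 382, 664 and 846 in CM-enriched cultures, against 92.9, 86 and 78.4 in fibroblasts (2.81, SE 0.32, adjusted p = 0.00853). Des, the intermediate filament that ties Z-discs together, had 1635, 1026 and 1110 in CM-enriched cultures, against 12.8, 131 and 6.78 in fibroblasts, where 1 array lay at the floor (5.77, SE 1.20, adjusted p = 0.0342). Des kept its call in 1 of the 6 fits without an array (highest adjusted p 0.108). Cryab, a small heat shock protein of the Z-disc, was 0.64 higher (SE 0.15, adjusted p = 0.0494), and kept its call in 2 of those 6 fits. Nexn, an actin-binding protein of the Z-disc, counted as higher through its dimmer probe-set (1.42, adjusted p = 0.0298), its brightest having a difference of 1.34 (adjusted p = 0.191).

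The array of fibroblast replicate 2 carried more myocyte transcript than the other fibroblast arrays. It was the highest fibroblast array for 22 of the 24 sarcomere genes above the floor. The summed intensity of the list was 62285, 55811 and 52306 in CM-enriched cultures, against 14817, 32782 and 7820 in fibroblasts. The stretched fibroblast array of the same number was likewise the highest of its group for Myh6, with 256, 1579 and 52.7 in stretched fibroblasts. Without fibroblast replicate 2, 15 of the 26 sarcomere genes were higher (median 2.92). With a filter on dim probe-sets the number was 17, and in the fit on the 17 unstressed arrays, which share 1 estimate of the spread, it was 19. With the replicate number fitted as a block, the number was 0. The part of remaining myocytes, RNA quality or other features of that array in these values was not tested. Leaving out any other array gave 3 to 5 higher genes.

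The genes of the natriuretic peptides and the fetal programme gave 3 higher of 9, all of them the sarcomere genes named above, with a median of 2.68. Of all genes, 9.35% were higher and 13.7% were lower. Nppa, the atrial natriuretic peptide, had 3192, 3235 and 2978 in CM-enriched cultures, against 1403, 3870 and 995 in fibroblasts, so that the populations overlapped (0.84, adjusted p = 0.347). Nppa was named after its values were seen. Of 9 cardiac transcription factors, Nkx2-5, the homeobox factor of cardiac specification, was higher, with 843, 350 and 480 in CM-enriched cultures, against 93.6, 153 and 79.9 in fibroblasts (2.32, SE 0.43, adjusted p = 0.0257). Mef2d, of the MEF2 family of muscle regulators, was 0.96 higher (SE 0.14, adjusted p = 0.0153). Id2 and Id3, inhibitors of helix-loop-helix factors, were lower. Id2 had 391, 438 and 509 in CM-enriched cultures, against 1835, 1840 and 1158 in fibroblasts (-1.83, SE 0.23, adjusted p = 0.0103). Without an array, the call of Nkx2-5 held in 3 of 6 fits (highest adjusted p 0.087), and without fibroblast replicate 2 the fetal genes gave 7 higher. With the replicate number as a block, the fetal genes gave 0 higher.

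Of 27 calcium handling genes, 4 were higher and 3 were lower (median 0.48), shares not far from those of all genes (9.35% and 13.7%). Ryr2, the calcium release channel of the sarcoplasmic reticulum, had 93.4, 91.5 and 52.9 in CM-enriched cultures, against 9.92, 23.8 and 6.78 in fibroblasts (2.71, SE 0.56, adjusted p = 0.0336). The calcium channel subunits Cacna1g (T-type pore) and Cacnb2 (accessory subunit) were 1.56 (SE 0.17, adjusted p = 0.00767) and 2.07 (SE 0.23, adjusted p = 0.00803) higher. S100a1, a calcium sensor of muscle, was 1.47 higher (SE 0.15, adjusted p = 0.0072). In the other direction went the IP3 receptors Itpr1 and Itpr2, which release calcium from internal stores. Itpr1 had 52.2, 39.4 and 55.9 in CM-enriched cultures, against 267, 230 and 238 in fibroblasts (-2.33, SE 0.16, adjusted p = 0.00324). Itpr2 was 1.53 lower on the log2 scale in CM-enriched cultures (-1.53, SE 0.14, adjusted p = 0.00581), and Cacna2d1, an accessory channel subunit, gave -0.84 (SE 0.15, adjusted p = 0.0254). Camk2d, a calcium-dependent kinase, had probe-sets that disagreed: 1 passed as higher (1.72, adjusted p = 0.021), 1 passed as lower (-0.59, adjusted p = 0.0467) and the brightest did not pass (0.13, adjusted p = 0.465). With an array left out, 3 to 8 of the list were higher, the 8 without fibroblast replicate 2, and Ryr2 and Cacna2d1 each kept the call in 1 of 6 such fits.

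Of 21 ion channels and pumps, 10 were higher and 2 were lower (median 0.81), where 9.35% and 13.7% of all genes were. The 2 subunits of an ATP-sensitive potassium channel rose together. Kcnj8, its pore, had 175, 160 and 233 in CM-enriched cultures, against 9.32, 14.7 and 6.78 in fibroblasts (4.26, SE 0.35, adjusted p = 0.00443). Abcc9, its sulphonylurea receptor, had 127, 153 and 111 in CM-enriched cultures and lay at the floor on all 3 fibroblast arrays, at least 19-fold higher (adjusted p = 0.00113). The other probe-sets of Abcc9 gave smaller differences, 2.92 (adjusted p = 0.0072) and 1.35 (adjusted p = 0.0433). Kcnq1, a repolarising potassium channel, had 61.4, 24.4 and 37.9 in CM-enriched cultures and was at the floor in fibroblasts, at least 5.67-fold higher (adjusted p = 0.0141). The pump subunits Atp1b1 and Atp1b2 were 0.96 (adjusted p = 0.0363) and 1.29 (adjusted p = 0.0171) higher, and the chloride transporter Clcn3 was 1.0 higher (adjusted p = 0.00843). Kcnj5, a subunit of the acetylcholine-gated potassium channel, was 1.38 higher (adjusted p = 0.0197). Kcnd3, a channel of the transient outward current, went the other way. It was at the floor on all 3 CM-enriched arrays and had 170, 161 and 71.5 in fibroblasts, at least 18.5-fold lower in CM-enriched cultures (adjusted p = 0.00552), and another of its probe-sets gave -2.45 (adjusted p = 0.0103). Kcna5, a voltage-gated potassium channel, had 11.7, 12.9 and 11 in CM-enriched cultures, against 56.9, 31.6 and 35.4 in fibroblasts (-1.75, SE 0.26, adjusted p = 0.0157). Scn7a, a sodium channel that senses extracellular sodium, is named as 1 of the 12 largest falls. It had 15.5, 23.8 and 19.4 in CM-enriched cultures, against 217, 373 and 137 in fibroblasts (-3.53, SE 0.42, adjusted p = 0.0095). The count of higher genes was 4 without fibroblast replicate 1, 5 without fibroblast replicate 3 and 6 to 8 without each other array. Atp1b1, Atp1b2, Kcnj5, Kcnq1, Kcna5 and the probe-set of Abcc9 with the smallest difference lost their calls in at least 1 of these fits.

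Genes of energy metabolism were counted higher far more often than lower. Of 43 genes of the respiratory chain, ATP synthase and citrate cycle, 27 were higher and none was lower. On every array, 34 were above (20% of all genes were). Their differences through the brightest probe-set were small, with a median of 0.75. Ndufv3, of complex I, had probe-sets that disagreed, passing in both directions. Cox6c, a cytochrome oxidase subunit, had 254, 285 and 257 in CM-enriched cultures, against 118, 131 and 119 in fibroblasts (1.12, SE 0.07, adjusted p = 0.00286). Slc25a4, the ADP/ATP carrier of heart and muscle, had 4384, 4629 and 4665 in CM-enriched cultures, against 2739, 2664 and 2709 in fibroblasts (0.75, SE 0.05, adjusted p = 0.00296). Atp5f1d of the ATP synthase was 1.02 higher (adjusted p = 0.0036), Uqcrfs1, the Rieske protein of complex III, was 0.74 higher (adjusted p = 0.00367), and Ndufs6 and Ndufs1 of complex I were 0.99 (adjusted p = 0.00437) and 1.0 higher (adjusted p = 0.0052). The summed intensity of the list was 81689, 74871 and 80481 in CM-enriched cultures, against 43851, 49514 and 41664 in fibroblasts. Fibroblast replicate 2 was again the highest of its group for 32 of the 43 genes.

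Of 28 genes of fatty acid oxidation, 14 were higher and none was lower (median 0.96), where 9.35% and 13.7% of all genes were. The 14 cover entry into the mitochondrion, the acyl-CoA dehydrogenases and the last step of the spiral. Cpt1a, the liver form of the carnitine palmitoyltransferase that admits fatty acids, had 379, 418 and 424 in CM-enriched cultures, against 166, 160 and 149 in fibroblasts (1.36, SE 0.07, adjusted p = 0.00191). Acaa2, the thiolase of the last step, had 641, 693 and 605 in CM-enriched cultures, against 150, 205 and 157 in fibroblasts (1.93, SE 0.14, adjusted p = 0.0036). Acadm, the medium-chain dehydrogenase, was 1.71 higher (adjusted p = 0.00663), Cpt2 was 1.20 higher (adjusted p = 0.00865), and Decr1, the reductase for unsaturated fatty acids, was 1.55 higher (adjusted p = 0.00958). Ucp2, an uncoupling protein of the inner membrane, had 1366, 1392 and 1245 in CM-enriched cultures, against 230, 334 and 296 in fibroblasts (2.24, SE 0.15, adjusted p = 0.00324). The groups lay far apart for Ucp2, with little spread within either. Leaving out 1 array gave 9 (without fibroblast replicate 1) to 16 higher genes, and 19 to 31 for the respiratory list.

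Of 24 genes of glycolysis and the creatine kinases, 9 were higher and none was lower (median 0.56), where 9.35% and 13.7% of all genes were. Aldoc, the aldolase of brain, was among the strongest differences of the whole array. Its brightest probe-set had 967, 699 and 477 in CM-enriched cultures, against 25.1, 21.8 and 26.7 in fibroblasts (4.81, SE 0.28, adjusted p = 0.00251), and the other had a difference of 6.11 with 2 fibroblast arrays at the floor. Ckm, the muscle creatine kinase, had 1086, 1030 and 860 in CM-enriched cultures, against 65.7, 162 and 34.9 in fibroblasts (3.78, SE 0.59, adjusted p = 0.0178). Ckmt2, the creatine kinase of muscle mitochondria, was dim, with 19, 19.7 and 20.8 in CM-enriched cultures, against 6.78, 10.5 and 6.78 in fibroblasts (1.34, adjusted p = 0.015). The glucose transporter Slc2a1 and hexokinase Hk1 were 1.30 (adjusted p = 0.0072) and 1.06 (adjusted p = 0.00741) higher, and Pygm, the glycogen phosphorylase of muscle, was 3.51 higher (adjusted p = 0.0262). Among the small heat shock proteins, all 4 genes on the array counted as higher. Hspb6 had 478, 403 and 431 in CM-enriched cultures, against 103, 119 and 87.2 in fibroblasts (2.09, SE 0.14, adjusted p = 0.00299), and Hspb2 was 1.95 higher (SE 0.12, adjusted p = 0.00261). When an array was left out, 3 (without fibroblast replicate 1) to 8 glycolytic genes and 2 to 3 small heat shock genes were higher, and Ckm, Ckmt2 and Pygm lost the call at least once.

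The collagens and the enzymes that modify them lay on the side of the fibroblasts. Of 20 genes, none was higher, 11 were lower and 14 were below on every array (22.9% of all genes were), with a median of -0.53. Col11a1, a chain of the minor fibrillar collagen XI, had 16.1, 7.84 and 14.3 in CM-enriched cultures, against 361, 557 and 457 in fibroblasts, the largest fall among the probe-sets by which genes are named (-5.21, SE 0.34, adjusted p = 0.00296). The major collagens differed by far less. Col1a2 had 4367, 4263 and 3718 in CM-enriched cultures, against 6469, 6935 and 7083 in fibroblasts (-0.73, SE 0.09, adjusted p = 0.0102), and Col3a1 gave -0.22 (adjusted p = 0.185). Col5a2, which sets fibril diameter, gave -1.26 (SE 0.07, adjusted p = 0.00223), and the short-chain Col8a1 and the fibril-associated Col12a1 gave -1.52 (adjusted p = 0.00299) and -1.46 (adjusted p = 0.00853). Plod2, the lysyl hydroxylase of collagen telopeptides, had 667, 626 and 685 in CM-enriched cultures, against 1617, 1635 and 1592 in fibroblasts (-1.29, SE 0.04, adjusted p = 0.000918). P4ha1, of the prolyl hydroxylase, gave -1.05 (SE 0.11, adjusted p = 0.00737). The differences of both enzymes were several times their error although they were only about 2-fold in size. Leaving out 1 array gave 9 or 10 lower genes.

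Of the 34 other matrix glycoproteins and proteoglycans, 4 were higher and 6 lower, with a median of 0.00, and these shares were close to those of all genes (9.35% and 13.7%). Eln, tropoelastin of the elastic fibres, had 406, 1108 and 1023 in CM-enriched cultures, against 7912, 7912 and 8092 in fibroblasts (-3.37, SE 0.43, adjusted p = 0.0107). Fbln5, which organises elastic fibres, had 224, 205 and 287 in CM-enriched cultures, against 1203, 769 and 1328 in fibroblasts (-2.18, SE 0.26, adjusted p = 0.00937). Both genes of elastic fibres were thus far lower in CM-enriched cultures. Bgn, the small proteoglycan biglycan, gave -1.15 (SE 0.10, adjusted p = 0.00539). The cell surface heparan sulphate proteoglycans differed among themselves. Gpc6, a glypican, had 76.7, 77.5 and 91.9 in CM-enriched cultures, against 1242, 1065 and 1289 in fibroblasts (-3.87, SE 0.11, adjusted p = 0.000861), with hardly any spread in either population. Sdc2 had 352, 224 and 290 in CM-enriched cultures, against 1575, 1487 and 1690 in fibroblasts (-2.48, SE 0.18, adjusted p = 0.00364), and Sdc3 gave -2.06 (SE 0.19, adjusted p = 0.00581). Sdc4, the syndecan of focal adhesions, was higher, with 917, 1184 and 983 in CM-enriched cultures, against 429, 270 and 376 in fibroblasts (1.54, SE 0.21, adjusted p = 0.0128). Sparcl1, an antiadhesive matrix protein, had 139, 197 and 317 in CM-enriched cultures and was at the floor on all fibroblast arrays, at least 30.3-fold higher (adjusted p = 0.00322). Lum, the keratan sulphate proteoglycan lumican, and Spp1, osteopontin, were 1.24 (adjusted p = 0.0252) and 2.21 (adjusted p = 0.0342) higher. Between 2 and 4 genes of the list were higher and 5 or 6 lower with an array left out, and Lum and Spp1 lost the call (highest adjusted p 0.0695 and 0.0972).

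Of 25 matrix proteases and inhibitors, 6 were higher and 6 were lower (median -0.14), where 9.35% and 13.7% of all genes were. The plasminogen activators went opposite ways. Plau, the urokinase type, had 75.1, 119 and 108 in CM-enriched cultures, against 23.6, 16.5 and 23.4 in fibroblasts (2.24, SE 0.26, adjusted p = 0.00903), and its receptor Plaur was 1.26 higher (adjusted p = 0.0482). Plat, the tissue type, had 487, 460 and 543 in CM-enriched cultures, against 1105, 1227 and 1335 in fibroblasts (-1.30, SE 0.10, adjusted p = 0.00403). So did the gelatinases. Mmp9 had 55.7, 81.6 and 59 in CM-enriched cultures and lay at the floor in fibroblasts, at least 9.51-fold higher (adjusted p = 0.00223), whereas Mmp2 had 1770, 2046 and 1877 in CM-enriched cultures, against 3095, 2758 and 2522 in fibroblasts (-0.55, SE 0.10, adjusted p = 0.0253). Timp1, the inhibitor of both, was 0.95 higher (SE 0.11, adjusted p = 0.00907), and Ctsk, the collagen-degrading cathepsin K, was 1.03 higher (SE 0.08, adjusted p = 0.00368). Whether the members of either pair differed from each other was not tested. The number of lower genes was 1 without CM-enriched replicate 1, CM-enriched replicate 3 or fibroblast replicate 1, and 2 to 4 without the others. Plaur and Mmp2 kept the call in 1 of 6 such fits.

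Of 15 fibroblast markers, 1 was higher (Lum) and 6 were lower (median -0.39), where 9.35% and 13.7% of all genes were. The summed intensity of the list was 40142, 40556 and 40024 in CM-enriched cultures, against 46526, 46348 and 46840 in fibroblasts, so these markers were bright in both populations. The markers that separated the populations best were Tcf21, a transcription factor of the cardiac fibroblast lineage, and Ddr2, a collagen receptor. Tcf21 had 283, 381 and 478 in CM-enriched cultures, against 1515, 1418 and 1236 in fibroblasts (-1.90, SE 0.22, adjusted p = 0.00853). Ddr2 had 125, 119 and 125 in CM-enriched cultures, against 333, 291 and 239 in fibroblasts (-1.21, SE 0.13, adjusted p = 0.00803). Postn, periostin of activated fibroblasts, gave -0.59 (SE 0.09, adjusted p = 0.0153). Dcn, decorin, was above on every CM-enriched array without passing, with 4340, 5676 and 6050 in CM-enriched cultures, against 2819, 3702 and 2182 in fibroblasts (0.90, adjusted p = 0.0652), and was named after its values were seen. With an array left out, 3 (without CM-enriched replicate 3) to 5 markers were lower, and Lum passed only without fibroblast replicate 2. With the replicate number as a block, 0 markers were higher and 0 were lower.

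Markers of other cells were read in the same way, since the CM-enriched cultures were not sorted. Of 14 endothelial markers, 7 were higher, 1 was lower and 11 were above on every array (20% of all genes were). The median was 0.86, with sums of 1839, 2871 and 2429 in CM-enriched cultures, against 1565, 1708 and 1643 in fibroblasts. Pecam1, a junction protein of endothelium, had 185, 272 and 226 in CM-enriched cultures, against 26.7, 8.42 and 18.5 in fibroblasts (3.81, SE 0.48, adjusted p = 0.0104). Egfl7, secreted by endothelium, and Kdr, the VEGF receptor, were 2.79 (adjusted p = 0.0315) and 2.39 (adjusted p = 0.0472) higher. Thbd, thrombomodulin, was 0.92 higher (adjusted p = 0.0258), Sele was at the floor in fibroblasts and dim in CM-enriched cultures, and Fabp4, a fatty acid carrier of capillaries, was at least 5-fold higher (adjusted p = 0.0342), also with fibroblasts at the floor. Vwf, a defining endothelial gene, was dim throughout, with 11.5, 13.2 and 11.1 in CM-enriched cultures, against 6.78, 15.2 and 35.2 in fibroblasts. The number of higher endothelial genes was 2 without fibroblast replicate 1, 2 without fibroblast replicate 2, 3 without fibroblast replicate 3 and 4 or 5 without a CM-enriched array. Pecam1 and Sele passed in all of these fits, and Egfl7, Kdr, Thbd and Fabp4 did not. Edn1, the precursor of an endothelin, was the 1 lower member (-1.99, SE 0.44, adjusted p = 0.041), a call it kept in 1 of 6 fits without an array.

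The smooth muscle and epicardial lists held calls in both directions. Of 13 smooth muscle and myofibroblast genes, Csrp2 (1.71, adjusted p = 0.0186) and Cnn1 (1.40, adjusted p = 0.0225) were higher, and Cald1 (-1.96, adjusted p = 0.00515), Cnn3 (-0.78, adjusted p = 0.0179) and Tpm2 (-1.02, adjusted p = 0.0281) were lower. For Acta2, the alpha actin of smooth muscle, only 1 of 3 probe-sets passed (-0.65, adjusted p = 0.0458). Leukocyte and macrophage markers gave 2 higher of 20 and a median of 0.15, with sums of 474, 630 and 562 in CM-enriched cultures, against 471, 581 and 585 in fibroblasts. Schwann and neural markers gave 3 lower of 13, erythroid markers none of 7, and genes of liver, kidney, lung and gland 1 higher of 20. Of 6 epicardial and mesothelial markers, 1 was higher and 3 were lower, where 9.35% and 13.7% of all genes were. Krt19 was higher, with 80.4, 75 and 68 in CM-enriched cultures, against 11.6, 15.4 and 6.78 in fibroblasts (2.80, SE 0.34, adjusted p = 0.00993). Aldh1a2, which makes retinoic acid, had 90.5, 97.8 and 108 in CM-enriched cultures, against 458, 511 and 375 in fibroblasts (-2.17, SE 0.14, adjusted p = 0.00286), and Wt1 (-1.16, adjusted p = 0.0124) and Tcf21 (-1.90, adjusted p = 0.00853) were lower as well. The part of cells other than myocytes and fibroblasts in the differences of the genes below was not tested. Csrp2, Cnn1, Cnn3, Tpm2 and Acta2 each lost the call in at least 1 fit without an array, whereas Cald1, Krt19, Aldh1a2 and Wt1 kept it.

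The 3 largest rises among the named genes were of Pla2g2a, Reg3b and Lcn2. Pla2g2a, a secreted phospholipase A2 of the acute phase, had 877, 2936 and 2551 in CM-enriched cultures, against 6.78, 12.2 and 6.78 in fibroblasts, 2 of whose arrays lay at the floor (7.83, SE 0.57, adjusted p = 0.00362). Reg3b, a secreted lectin of injured tissue, had 3136, 2947 and 3149 in CM-enriched cultures, against 6.78, 11.8 and 38.2 in fibroblasts (7.73, SE 0.67, adjusted p = 0.005). Lcn2, a lipocalin that binds bacterial siderophores, had 978, 1954 and 2206 in CM-enriched cultures, against 10.7, 6.78 and 8.83 in fibroblasts (7.55, SE 0.38, adjusted p = 0.00191). These 3 genes passed whichever array was left out. Il1rl1, a receptor of the interleukin family, had 285, 122 and 123 in CM-enriched cultures, against 6.78, 6.78 and 21.6 in fibroblasts (4.02, SE 0.64, adjusted p = 0.018), and passed in 2 of 6 fits without an array (highest adjusted p 0.065).

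Of 15 chemokine ligands, 6 were higher and none was lower (median 0.88), where 9.35% and 13.7% of all genes were. This list was added after the data were seen. The summed intensity of the list was 4153, 5602 and 4879 in CM-enriched cultures, against 1158, 1021 and 518 in fibroblasts. Ccl2, an attractant of monocytes, made up most of this signal. It had 3235, 4037 and 3434 in CM-enriched cultures, against 671, 435 and 167 in fibroblasts, by its brightest probe-set (3.28, SE 0.55, adjusted p = 0.0202), and another probe-set gave 4.49 (SE 0.49, adjusted p = 0.00803). Cxcl6, an attractant of neutrophils, had 261, 657 and 496 in CM-enriched cultures, against 26.1, 33.2 and 37.2 in fibroblasts (3.79, SE 0.39, adjusted p = 0.00712). Ccl20, an attractant of lymphocytes and dendritic cells, had 197, 106 and 98.2 in CM-enriched cultures, against 11.6, 26.1 and 10.9 in fibroblasts (3.09, SE 0.48, adjusted p = 0.0176). Cxcl13, an attractant of B cells, had 44.2, 72.5 and 99 in CM-enriched cultures, against 12.6, 10 and 6.78 in fibroblasts (2.85, SE 0.40, adjusted p = 0.0142). The dimmest were Ccl3 (2.14, adjusted p = 0.0337) and Cxcl10, with 18.9, 24.8 and 23.1 in CM-enriched cultures, against 11.1, 8.82 and 10.7 in fibroblasts (1.12, SE 0.15, adjusted p = 0.0122). Leaving out 1 array changed the number of higher chemokine genes to between 3 (without CM-enriched replicate 2) and 8 (without CM-enriched replicate 1). Cxcl6, Cxcl10 and the probe-set of Ccl2 with the 4.49 difference passed in all 6 fits, whereas its brightest probe-set, Ccl20, Cxcl13 and Ccl3 did not. The cytokine Il6 was at least 3.07-fold higher, with all fibroblast arrays at the floor (adjusted p = 0.0237), a call it kept in 1 of 6 fits without an array (highest adjusted p 0.0801).

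Genes of this kind are known to be driven by the factor NF-kB, and the 250 bases before their start sites are shown for that reason, from RefSeq (GRCr8), written 5′ to 3′ toward the gene, with matches to the NF-kB site in capitals. The site was searched on both strands, as 3 G, then A or G, any 2 bases, 2 of C or T, and 2 C, and overlapping matches were kept as 1 stretch. Of the 6 chemokine genes called higher, 4 were matched in the table. The windows are chr14:17596418-17596667 for Cxcl6 (minus strand), chr9:91836909-91837158 for Ccl20 (plus strand), chr14:15988816-15989065 for Cxcl10 (plus strand), chr14:13917921-13918170 for Cxcl13 (minus strand) and chr3:36081781-36082030 for Lcn2 (minus strand).
Cxcl6: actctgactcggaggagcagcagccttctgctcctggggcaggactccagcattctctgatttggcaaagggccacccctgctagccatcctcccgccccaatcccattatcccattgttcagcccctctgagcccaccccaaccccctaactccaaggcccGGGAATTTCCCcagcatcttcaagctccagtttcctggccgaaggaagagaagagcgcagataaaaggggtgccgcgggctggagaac
Ccl20: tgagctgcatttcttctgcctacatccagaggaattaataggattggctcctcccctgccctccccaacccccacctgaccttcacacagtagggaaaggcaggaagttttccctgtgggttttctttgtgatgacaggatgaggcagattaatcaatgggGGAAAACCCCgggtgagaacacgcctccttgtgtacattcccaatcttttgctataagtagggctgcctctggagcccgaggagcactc
Cxcl10: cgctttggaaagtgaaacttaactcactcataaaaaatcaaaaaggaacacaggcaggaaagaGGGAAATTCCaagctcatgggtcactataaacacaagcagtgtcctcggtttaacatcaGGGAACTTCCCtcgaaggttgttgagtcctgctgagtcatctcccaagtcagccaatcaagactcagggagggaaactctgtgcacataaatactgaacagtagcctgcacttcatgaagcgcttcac
Cxcl13: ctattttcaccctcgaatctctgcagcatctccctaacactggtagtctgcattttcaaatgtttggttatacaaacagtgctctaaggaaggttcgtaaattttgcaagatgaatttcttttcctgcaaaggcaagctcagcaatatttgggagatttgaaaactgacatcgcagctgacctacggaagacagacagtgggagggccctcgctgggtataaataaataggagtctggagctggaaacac
Lcn2: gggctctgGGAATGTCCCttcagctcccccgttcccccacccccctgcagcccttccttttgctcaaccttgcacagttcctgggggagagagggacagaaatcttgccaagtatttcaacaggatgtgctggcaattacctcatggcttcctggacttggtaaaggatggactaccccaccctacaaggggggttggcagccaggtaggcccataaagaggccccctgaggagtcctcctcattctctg
A match lay in the windows of Cxcl6, Ccl20, Cxcl10 and Lcn2, and none in that of Cxcl13. The same pattern lay in 2117 of 33469 windows of this length (6.33%). None of the 5 matched promoters of called sarcomere genes held it, nor a CArG box (501 of all windows, 1.5%) or a MEF2 site (991, 2.96%), the sites of SRF and MEF2 in muscle genes. A match is a sequence of letters, and binding was not measured. The genes shown were picked from those called higher, and the motifs were chosen after the data were seen. Windows of chemokine genes that were not called were not set beside them. The part of NF-kB in these differences was not tested.

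Of 36 growth factor genes, 6 were higher and 9 were lower (median 0.14), where 9.35% and 13.7% of all genes were. H19, an imprinted RNA of fetal tissue that codes for no protein, had 685, 1041 and 1366 in CM-enriched cultures and lay at the floor in all fibroblasts, at least 146-fold higher (adjusted p = 0.00103). Its brighter probe-set lay above the floor in fibroblasts and gave a smaller difference. It had 455, 606 and 818 in CM-enriched cultures, against 42.4, 70.4 and 38.8 in fibroblasts (3.64, SE 0.33, adjusted p = 0.00551). Igf2, its imprinted neighbour, was above on every array without passing (3.47, SE 0.96, adjusted p = 0.0679), and was named after its values were seen. Pdgfb, a growth factor of endothelium and platelets, was at least 4.70-fold higher, with fibroblasts at the floor (adjusted p = 0.00135), and Fgf1 was 1.57 higher (SE 0.14, adjusted p = 0.00552). On the other side stood Bmp4, with 45.5, 19.5 and 48 in CM-enriched cultures, against 530, 475 and 338 in fibroblasts (-3.66, SE 0.43, adjusted p = 0.009). Nrg1, the neuregulin that acts on myocytes through ErbB receptors, had 23.8, 16.8 and 30.2 in CM-enriched cultures, against 247, 337 and 225 in fibroblasts (-3.53, SE 0.28, adjusted p = 0.00437). Of its 7 probe-sets, 5 passed as lower. Tgfb3 had 214, 194 and 156 in CM-enriched cultures, against 952, 533 and 877 in fibroblasts (-2.03, SE 0.27, adjusted p = 0.0122). Bmp6 gave -1.10 (adjusted p = 0.0154), and Fgf10 and Hbegf gave -1.01 (adjusted p = 0.0262) and -0.98 (adjusted p = 0.0323). Bmp6, Fgf10 and Hbegf lost the call in at least 1 fit without an array, and the number of lower genes was then 4 (without CM-enriched replicate 3) to 6.

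Of 27 receptors for vasoactive and adrenergic ligands, 7 were higher and 4 were lower (median 0.14), where 9.35% and 13.7% of all genes were. Adrb1, the main beta receptor of the myocyte, had 117, 96.2 and 72.4 in CM-enriched cultures, against 6.78, 8.09 and 6.78 in fibroblasts, with 2 arrays at the floor (3.70, SE 0.23, adjusted p = 0.00261). Chrm2, the muscarinic receptor of the heart, was 1.83 higher (SE 0.27, adjusted p = 0.0158), and Ptgfr, the prostaglandin F receptor, was 2.00 higher (SE 0.19, adjusted p = 0.00613). Adora2a and Adora2b, receptors of adenosine, were 1.40 (adjusted p = 0.0179) and 2.37 (adjusted p = 0.0162) higher. The receptors lower in CM-enriched cultures were F2r for thrombin (-0.95, adjusted p = 0.0103), Npr3 and Npr2 for natriuretic peptides (-1.93, adjusted p = 0.0229, and -1.34, adjusted p = 0.0427) and Agtr1a for angiotensin (-0.98, adjusted p = 0.0247). Tbxa2r, the thromboxane receptor, is not in the list and is named for its large fall. It had 19.6, 12.4 and 12 in CM-enriched cultures, against 175, 128 and 134 in fibroblasts (-3.34, SE 0.27, adjusted p = 0.00437). Without fibroblast replicate 1, 2 receptors were higher and 1 was lower, and without each other array 3 to 6 and 1 to 3. Adrb1, Ptgfr, F2r and Tbxa2r passed in all of these fits.

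A further 4 of the 12 largest falls were of Plcl1, Pde7a, Pcsk5 and Scg2. Plcl1, a phospholipase C-like protein without catalytic activity, had 33.8, 28.7 and 40.1 in CM-enriched cultures, against 368, 409 and 376 in fibroblasts (-3.50, SE 0.14, adjusted p = 0.00128). Pde7a, a cAMP phosphodiesterase, was at the floor in CM-enriched cultures and had 64.2, 65.9 and 67.5 in fibroblasts, at least 9.72-fold lower in CM-enriched cultures (adjusted p = 0.000861). Pcsk5, a proprotein convertase, had 6.78, 6.78 and 11.5 in CM-enriched cultures, against 104, 129 and 108 in fibroblasts (-3.81, SE 0.27, adjusted p = 0.00356). Scg2, a secretogranin of dense-core vesicles, had 11, 10.7 and 7.58 in CM-enriched cultures, against 111, 104 and 186 in fibroblasts (-3.75, SE 0.31, adjusted p = 0.00458). In CM-enriched cultures Pde7a, Pcsk5 and Scg2 lay near or at the floor, whereas Plcl1 was above it on every array.

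Of 18 genes of junctions, integrins and caveolae, 5 were higher and 4 were lower (median 0.05), where 9.35% and 13.7% of all genes were. The connexins were on the side of the CM-enriched cultures. Gja1, the main connexin of the intercalated disc, had 323, 248 and 236 in CM-enriched cultures, against 31.5, 58 and 37.1 in fibroblasts (2.71, SE 0.28, adjusted p = 0.00711). Gja4 and Gja5, connexins that endothelium also uses, were 3.57 (adjusted p = 0.015) and 3.04 (adjusted p = 0.0445) higher. Cav3, the caveolin of muscle, had 826, 597 and 690 in CM-enriched cultures, against 62.8, 155 and 73.3 in fibroblasts (2.97, SE 0.39, adjusted p = 0.0117). The integrins Itga8 and Itga1, receptors of matrix, gave -1.81 (SE 0.11, adjusted p = 0.00261) and -1.30 (SE 0.17, adjusted p = 0.0119). Dmd, the dystrophin gene, was lower too (-1.13, adjusted p = 0.0238), although dystrophin is a protein of muscle membranes. With an array left out, 2 to 5 genes were higher and 2 or 3 lower, the lowest counts without CM-enriched replicate 3 or fibroblast replicate 1, and Gja4, Gja5 and Dmd lost the call at least once.

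Of 14 genes of cholesterol synthesis, 8 were lower and none was higher (median -1.11). On every array, 12 were below (22.9% of all genes were). Nsdhl, of the removal of sterol methyl groups, had 103, 57.4 and 68.5 in CM-enriched cultures, against 361, 276 and 333 in fibroblasts (-2.12, SE 0.25, adjusted p = 0.00956). Insig1, the sterol-regulated brake on the pathway, had 778, 855 and 718 in CM-enriched cultures, against 2013, 1999 and 2596 in fibroblasts (-1.48, SE 0.13, adjusted p = 0.00541). Msmo1 and Sqle, enzymes of the late pathway, gave -1.22 (SE 0.12, adjusted p = 0.00613) and -1.19 (SE 0.22, adjusted p = 0.0266), of which Sqle kept its call in 2 of 6 fits without an array (highest adjusted p 0.0865). In the fit on the 17 unstressed arrays the number of lower genes was 3, and it was 4 without fibroblast replicate 1, 4 without fibroblast replicate 3, 5 without CM-enriched replicate 2 and 6 to 9 without the others. Horse serum was used for the CM-enriched cultures and foetal bovine serum for the fibroblasts, and the 2 cannot be told apart from the cell population here. Of 40 cytosolic ribosomal proteins, 15 were lower and none was higher, by small amounts (median -0.22, Rpl4 -0.58, adjusted p = 0.00481). This number was 4 when arrays were only scaled to their 75th percentile, and 2 (without fibroblast replicate 3) to 11 with an array left out. Genes of mitosis and DNA replication gave 4 higher of 28 (median 0.38, with 9.35% of all genes higher), Ccnb1, Ccne1, Mcm6 and Mcm7. Without CM-enriched replicate 2, none of the 28 counted as higher. The interferon response and MHC class I list gave 3 higher, among them the proteasome activator Psme1 (1.11, adjusted p = 0.00933), and 3 lower, among them Stat2 (-1.39, adjusted p = 0.00515), of 19 genes. Over all genes, 9.35% were higher and 13.7% were lower.

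**Figure D3:**
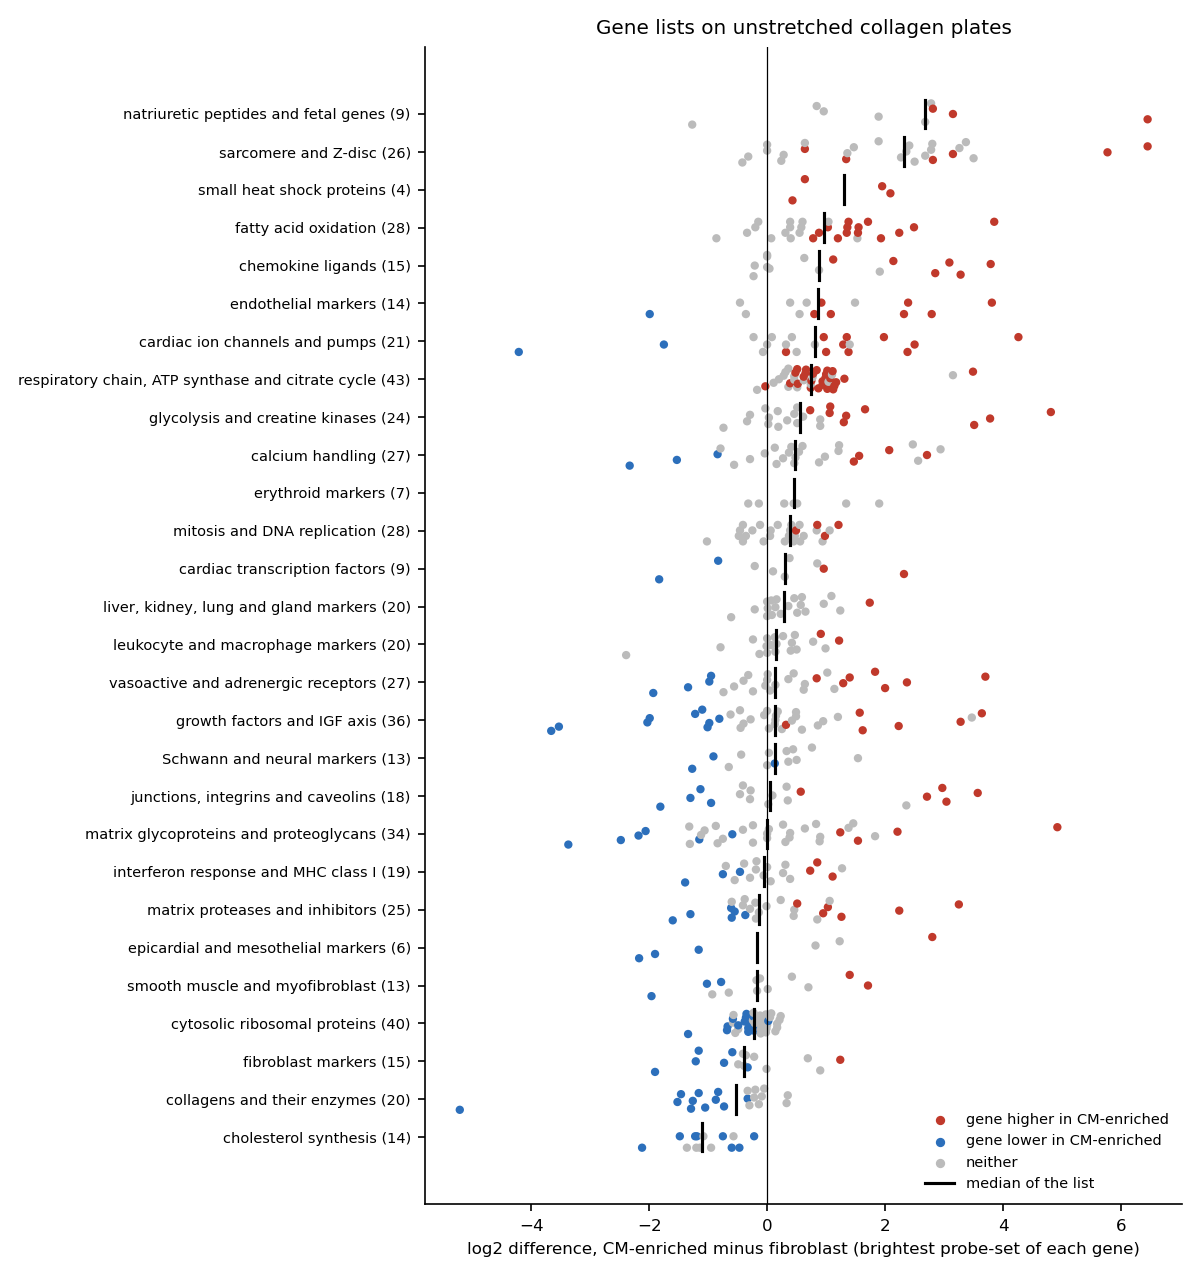
Log2 difference, CM-enriched minus fibroblast (horizontal axis), of each gene of 28 lists through its brightest probe-set, with the number of genes in parentheses and the median of the list as a black bar. Genes called higher in CM-enriched cultures are red, genes called lower are blue and the rest grey. The medians run from 2.68 for the natriuretic peptides and fetal genes to -1.11 for cholesterol synthesis, against 0.00 over all 4736 genes.

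The same contrast was read on arrays that the comparison above does not use. On stretched plates, with 3 arrays of each population, 606 probe-sets were higher (6.93%) and 811 lower (9.28%) in CM-enriched cultures. After sham treatment in the IR experiments, with 3 arrays each, 668 were higher (7.64%) and 596 lower (6.82%), and in the UV experiments, with 2 arrays of CM and 3 of fibroblasts, 704 were higher and 704 lower (8.05% each). In both radiation experiments the myocytes are CM-enriched fractions, purified by elutriation, and no label says that these cells were on collagen plates. Of the 734 probe-sets higher on unstretched plates, 711 had the same direction on stretched plates and 407 were called there. The same direction was seen for 609 in the IR experiments (292 called) and 642 in the UV experiments (298 called), and 161 were called in all 3. Of the 996 lower, 987 had the same direction on stretched plates (571 called), 856 in the IR experiments (261 called) and 892 in the UV experiments (350 called), and 117 were called in all 3. Calls in the opposite direction were rare, with 0, 1 and 7 of the higher and 0, 5 and 2 of the lower on stretched plates, in the IR and in the UV experiments. The study treats stretched and unstretched cells of the same number as 1 experiment, so the stretched arrays are not a set of unrelated cultures.

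Some differences had the same direction wherever the populations were compared. Tnni1 had 3042, 3052 and 3012 in CM-enriched fractions, against 29.9, 20 and 75.7 in fibroblasts of the IR experiments, and 2819 and 3245 in fractions, against 64.7, 79.4 and 87.7 in fibroblasts of the UV experiments. Col11a1 had 14.7, 26.7 and 25.3 in fractions, against 638, 673 and 460 in fibroblasts of the IR experiments, and 8.12 and 12.4 in fractions, against 627, 670 and 561 in fibroblasts of the UV experiments. Reg3b had 2062, 1515 and 1761 in fractions, against 36.4, 13.8 and 102 in fibroblasts of the IR experiments, and 1305 and 1325 in fractions, against 92.3, 25 and 45.5 in fibroblasts of the UV experiments. The difference of Reg3b was 5.57 in the IR and 4.80 in the UV experiments, against 7.73 on unstretched plates. For these 3 genes no array of 1 population reached the level of the other in any of the 4 settings.

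For Lcn2 and Pla2g2a the populations overlapped in the IR experiments. Neither gene passed in the UV experiments (Lcn2 4.79, adjusted p = 0.0604, and Pla2g2a 3.20, adjusted p = 0.116). Lcn2 had 1052, 487 and 822 in fractions, against 6.78, 47.2 and 4002 in fibroblasts of the IR experiments. Pla2g2a had 269, 132 and 260 in fractions, against 6.78, 134 and 6226 in fibroblasts of the IR experiments. Fibroblast replicate 2, at 134, thus also lay above the lowest fraction, at 132. The highest fibroblast value came from the same array for both genes, replicate 3, which also had 3796 for Cxcl6, against 35.8 and 36 on the other fibroblast arrays of that group. That array had 3838 for Ccl20, against 10.4 and 33.8. What sets that array apart was not tested. The chemokine list had a median of 0.78 on stretched plates, -0.00 in the IR and 0.63 in the UV experiments. By the probe-set of Ccl2 with the 4.49 difference, the populations overlapped in the IR experiments. It had 1400, 1124 and 1396 in fractions, against 271, 1208 and 6870 in fibroblasts. In the UV experiments it had 733 and 292, against 192, 124 and 150, and did not pass (adjusted p = 0.119).

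**Figure D4:**
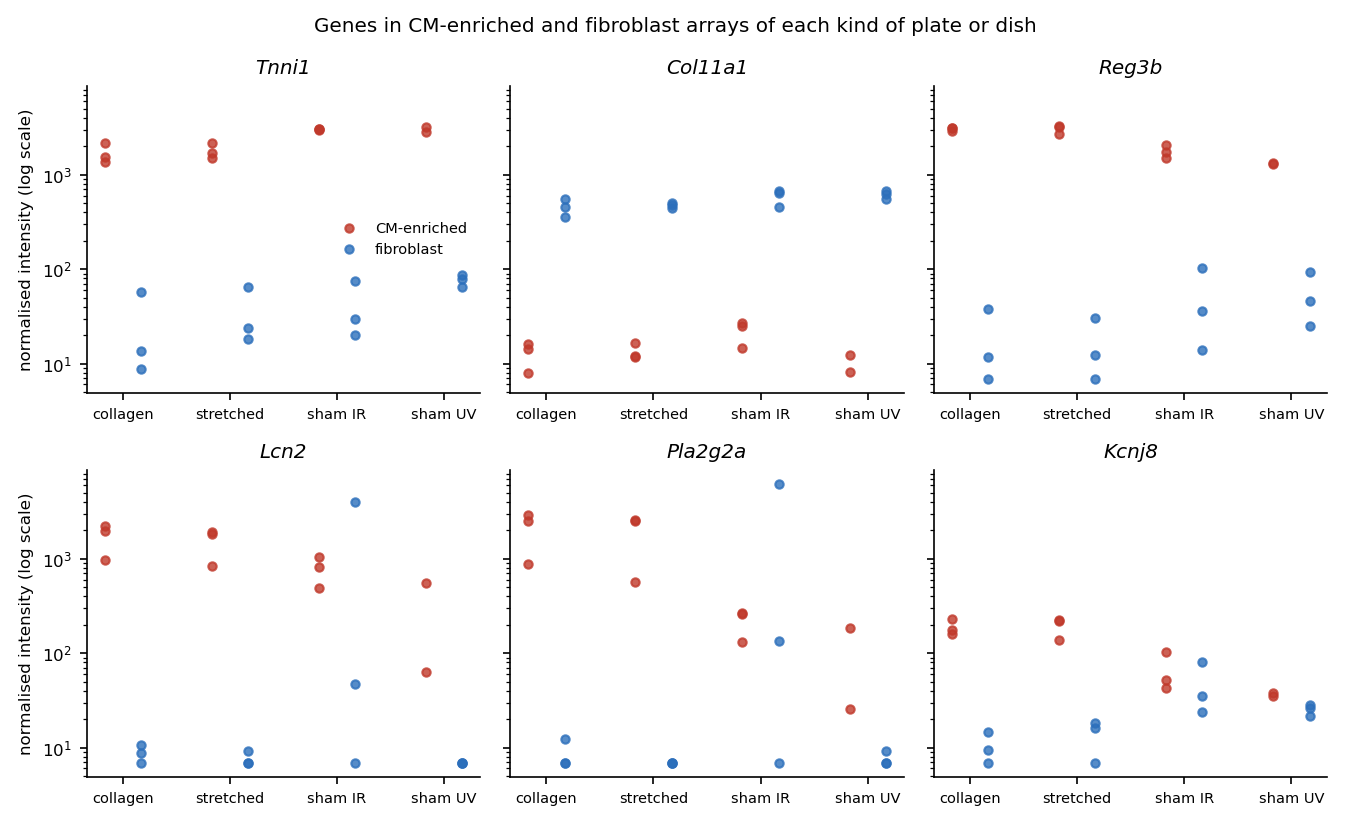
Normalised intensity (log scale) of 6 genes on CM-enriched (red, left) and fibroblast (blue, right) arrays from unstretched collagen plates, stretched plates and sham-treated dishes of the IR and UV experiments, 1 point an array. Tnni1, Col11a1 and Reg3b separate the populations in all 4 settings, 1 fibroblast array of the IR experiments is high for Lcn2 and Pla2g2a, and the populations lie closer for Kcnj8 in the sham-treated dishes than on collagen plates.

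Whether the population difference itself differed was tested as an interaction. Between unstretched and stretched plates, 2 of 8740 probe-sets differed (0.0229%), and 254 had an unadjusted p under 0.05 (limma, no block). With the replicate number within each population as a block, since the study treats stretched and unstretched cells of 1 number as 1 experiment, none passed (smallest adjusted p 0.128) and 398 had an unadjusted p under 0.05. The deviations of same-numbered arrays of 1 population from their group means correlated at 0.063 to 0.411 in the 6 pairs. These fits leave 8 and 4 residual degrees of freedom, and such counts do not show that the population difference was alike on both plates. Between collagen plates and the sham-treated cells of both radiation experiments, the difference was higher on collagen plates for 227 probe-sets (2.6%) and lower for 199 (2.28%). Of the 15 fibroblast markers, 7 were among those higher and 1 among those lower, where over all genes 145 (3.06%) and 120 (2.53%) were. Lum had a difference of 1.24 on collagen plates, against -0.57 and -2.14 in the IR and UV experiments (2.60, SE 0.42, adjusted p = 0.0067). Dcn had 0.90 on collagen plates, against -0.89 and -2.36 in the radiation experiments (2.53, SE 0.30, adjusted p = 0.000997). Ddr2 had -1.21 on collagen plates, against -3.35 and -3.65 in the radiation experiments (2.29, SE 0.42, adjusted p = 0.011). Fibroblast markers thus set the populations further apart where the CM had been elutriated, with list medians of -0.39 on collagen plates, -1.18 in the IR and -2.33 in the UV experiments. The matrix proteases Ctsk (2.80, adjusted p = 9.04e-05) and Mmp2 (1.94, adjusted p = 3.91e-05) and the protease inhibitor Serpine2 (2.92, adjusted p = 0.000463) differed in the same direction. Of 26 sarcomere genes, only Tcap, a titin cap, differed (-4.55, adjusted p = 0.0437). It had 17.1, 6.78 and 8.46 in CM-enriched cultures, against 6.78, 51.3 and 6.78 in fibroblasts on collagen plates, a difference of -0.42 that became 0.55 without fibroblast replicate 2. Elutriation, plate coating and experiment cannot be told apart in this contrast.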

How the data were processed

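Neonatal rat heart cells were hybridised to Affymetrix rat arrays, and the 6 unstretched arrays on collagen plates (3 CM-enriched, 3 fibroblast) of 35 were compared. The authors deposited linear intensities, 1 for every array and probe-set (8799). Which software made these intensities is not given in the sources used here. The mean left after taking off 2% of the values at either end lies between 200.3 and 200.4 on the 6 arrays, so that they appear to have been scaled to a common trimmed mean by the authors. The gcrma and VSN steps and the linear model on probe signals that the authors describe are not part of these intensities. No pair of arrays was identical, and the number of arrays limits the precision. Instrument records cover 2 of the 6 arrays and were not used, so no scan or lot could be tested as a batch.

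All 35 arrays were scaled to the same 75th percentile, given a minimum of 6.8 (the 20th percentile of the scaled values), transformed to log2 and quantile normalised. The test covered 8740 probe-sets, without 59 controls. Of these, 7006 have 1 gene symbol in the platform annotation (6985 matched to the rat gene table), 308 several and 1426 none, and symbols stand for 4736 genes. The 6 arrays were fitted with limma 3.58.1 in R 4.3.3 (lmFit, and eBayes with a variance trend, 4 residual degrees of freedom), with no block, two-sided, adjusted by Benjamini-Hochberg over all probe-sets. A group with all its arrays at the floor gives only a bound, the geometric mean of the other group over the floor, written as at least N-fold. The replicate numbers in the titles, with a title without a number taken as 1, were checked for pairing. Deviations from the group means of same-numbered CM-enriched and fibroblast arrays correlated at 0.026, 0.083 and 0.032. Such values cannot decide whether the numbers pair the populations. Stretched and unstretched CM-enriched arrays of number 2, which the study treats as 1 experiment, correlated at only 0.063. The interaction contrast used the 17 unstressed arrays, with 1 coefficient for each group. The pipeline was tested on simulated data with known changes, where it left most of the smaller changes uncalled, so a difference that did not pass is not shown to be absent.

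The genes named are the 12 largest rises and 12 largest falls of distinct genes among called probe-sets with 1 symbol, no overlap between the groups and a group mean over 4 times the floor. To these come Myh6, Myl2 and Col1a1, and of each list the 6 members of smallest adjusted p (or fewer) in each direction and members whose probe-sets disagree. The brightest probe-set stands for a gene. The members, the lists and the tests were chosen with earlier results of these data known. The chemokine and ribosomal protein lists and the promoter motifs were added after seeing the data. Alternatives were the scaling, a normalisation of the 6 arrays alone, a pseudocount of 16 in place of the floor, a floor at the 40th percentile (24.2), a filter that keeps the 7183 probe-sets above the floor on at least 3 of the 6 arrays, no variance trend, fits on 12, 17 or 35 arrays, the replicate block and leaving out each array.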

Additional observations from a re-analysis of the deposited data

Results flagged for a closer look

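Among the 12 largest rises and 12 largest falls, the difference between the populations on collagen plates differed from that in the sham-treated cells for 3 genes, all larger on collagen plates. The genes were picked for large differences on the same collagen plate arrays, which favours a larger gap there. The direction of these gaps therefore adds no support. Kcnj8 had a difference of 4.26 on collagen plates, against 0.60 and 0.53 in the IR and UV experiments, a gap of 3.69 (adjusted p = 0.00475). Its levels were 103, 51.7 and 43.1 in CM-enriched fractions, against 35.2, 23.7 and 79.7 in fibroblasts of the IR experiments. It passed under each alternative run but the replicate block (adjusted p = 0.0785, with a range of 0.00184 to 0.0785 over the alternatives). Il1rl1 differed by 3.84 (adjusted p = 0.0122), with 65.3, 178 and 275 in fractions, against 83.2, 130 and 168 in fibroblasts of the IR experiments, where the populations overlapped. With the sham arrays of the IR experiments alone the adjusted p was 0.0728, and with the replicate block 0.0735, the others lying between 0.00628 and 0.0365. Aldoc differed by 3.58 (adjusted p = 0.0362) through its dimmer probe-set. The adjusted p was 0.11 with the higher floor, 0.0919 with the IR experiments alone, 0.133 with the replicate block and 0.0296 to 0.0951 with a collagen plate array left out. Without the sham-irradiated fibroblast replicate 3, which has 218 for Aldoc against 51.1 and 19.1 on the other arrays of its group, the gap was 3.11 (adjusted p = 0.0111). The groups hold 2 or 3 arrays, too few to test single arrays as outliers.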

How the results depend on the processing

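The 734 higher and 996 lower probe-sets, and the 443 higher and 648 lower genes, stayed within 1.5 times these numbers under 10 of the alternatives tried on the collagen plates, which are every scaling, floor, filter, trend and choice of fitted arrays. The replicate block gave 221 higher and 285 lower probe-sets, and 139 higher and 191 lower genes. Whether same-numbered CM-enriched and fibroblast arrays share an isolation is not known, and the weak correlation of their deviations cannot decide it. With each array left out, the higher probe-sets numbered 317 to 560 and the lower 439 to 683, and the higher genes 204 to 332 and the lower 289 to 458. The lowest of each came without fibroblast replicate 1. The number moved by over 1.5 times also without CM-enriched replicate 2 (408 higher and 577 lower), CM-enriched replicate 3 (451 and 573) and fibroblast replicate 3 (424 and 587), and, for the lower probe-sets, without CM-enriched replicate 1 (663). These fits had 5 arrays, and 1 population then rests on 2. For the interaction with the sham-treated cells (227 higher and 199 lower), the sham arrays of the IR experiments alone gave 112 and 131, and the replicate block gave 32 and 15. For the interaction with stretched plates (2 probe-sets), the replicate block, chosen after seeing the data, gave 0. For the sham-treated cells, leaving out each collagen plate array gave 116 to 218 higher and 100 to 211 lower, and leaving out the sham-irradiated fibroblast replicate 3 gave 324 and 252, both chosen after seeing the data.

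Of the 147 called probe-sets of the genes named, 94 passed whichever array was left out and 53 lost the call at least once. The replicate block kept 71 and lost 76. The higher floor lost 18, the fit on 17 arrays 18, the fit on 35 arrays 15, median scaling 10, scaling to the 75th percentile 5, no trend 4, and the pseudocount, the filter and the fit on 12 arrays 1 each. None of them changed direction. Among named probe-sets that were not called, the sign turned for Camk2d with median scaling (-0.15), Col3a1 with scaling to the 75th percentile (0.03), Tcap without fibroblast replicate 2 (0.55, with -0.91 as the lowest value without an array) and Vwf without fibroblast replicate 3 (0.24, with -0.95 as the lowest). Scaling to the 75th percentile moved the median difference over all probe-sets by 0.09. The floor understates the differences of genes that lie near it.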
